A study of Mus musculus with 2 samples.

Results

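Tight junctions are the belt of strands that closes the space between neighbouring epithelial cells, and 10 genes of this structure were followed through the sorted gut epithelium of mice with chemical injury. They were Cldn2, Cldn3, Cldn4, Cldn7, Cldn15 and Cldn23, which encode claudins, Ocln and Marveld3, which encode MARVEL proteins, F11r, which encodes junctional adhesion molecule A, and Tjp1, which encodes the scaffold ZO-1. The genes were picked by symbol, and all 10 were present among the 32285 genes listed in both count tables. In the GRCm38 annotation, Cldn3 (134986214 to 134987472), Cldn4 (134945119 to 134946934) and Cldn15 (136966616 to 136975858) lie on chromosome 5, Cldn2 on chromosome X (139800828 to 139811386), Cldn7 on chromosome 11 (69964779 to 69967885), Cldn23 and Marveld3 on chromosome 8, Ocln on chromosome 13, Tjp1 on chromosome 7 and F11r on chromosome 1. They were a chosen set and not the full junction, for which a wider list of 79 listed genes, members included, is described further on.

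The data were single-cell RNA-seq libraries, 1 from wild type (WT) littermates and 1 from MG53-TG mice, which overexpress MG53 (also called TRIM72, encoded by Trim72) throughout the body. Both groups drank 2.5% dextran sulfate sodium (DSS), which damages the gut lining, and cells were taken on day 7, so that no uninjured group was available as a background. Crypts of the intestine were dissociated, and live EpCAM-positive cells negative for 7-AAD were sorted and captured with the 10x Genomics 3′ V3 kit. The labels give neither the gut segment nor the number, age or sex of the mice in a library. The study names several mice a group for this experiment without saying whether their cells were pooled, and with 1 library a group there were no replicates. No test between the genotypes was therefore made, and every interval below is a 95% interval for counting error only.

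Claudins span the membrane and decide which ions cross between cells. Claudin-2 and claudin-15 form cation channels, of which claudin-2 is known from crypts and leaky epithelia and claudin-15 from the absorptive small intestine, whereas claudin-3, claudin-4 and claudin-7 are usually counted among the sealing claudins. Occludin and MarvelD3 sit beside the claudins in the strands, junctional adhesion molecule A takes part in setting up the junction and cell polarity, and ZO-1 ties the membrane proteins to actin.

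The promoters of the 3 claudins whose levels differed most between cell types are shown, since these are the stretches in which each gene starts. The RefSeq promoter table (GRCm38.p6) held windows for 8 of the 10 genes and none for Cldn23 and Marveld3. Each printed stretch runs 5′ to 3′ on the gene's strand from 250 bases before the start to 20 bases from it on, and capitals mark the motifs found, which are the TATA box TATAAA, the letters TTTATG bound by CDX factors and the GC box GGGCGG bound by SP and KLF factors, on either strand (CCGCCC for the last). Cldn2 lies at chrX:139800558-139800827 (plus strand), Cldn15 at chr5:136967619-136967888 (plus strand) and Cldn4 at chr5:134946915-134947184 (minus strand).
Cldn2: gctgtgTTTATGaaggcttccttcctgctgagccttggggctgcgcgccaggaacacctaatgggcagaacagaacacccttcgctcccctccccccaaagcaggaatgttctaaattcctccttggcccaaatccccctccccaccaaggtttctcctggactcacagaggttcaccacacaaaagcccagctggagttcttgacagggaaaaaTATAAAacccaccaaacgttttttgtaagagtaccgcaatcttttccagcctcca
Cldn15: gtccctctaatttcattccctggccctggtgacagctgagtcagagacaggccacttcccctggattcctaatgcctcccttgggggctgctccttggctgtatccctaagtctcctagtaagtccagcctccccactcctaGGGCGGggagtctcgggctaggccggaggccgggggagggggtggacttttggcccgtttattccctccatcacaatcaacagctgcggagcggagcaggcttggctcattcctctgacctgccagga
Cldn4: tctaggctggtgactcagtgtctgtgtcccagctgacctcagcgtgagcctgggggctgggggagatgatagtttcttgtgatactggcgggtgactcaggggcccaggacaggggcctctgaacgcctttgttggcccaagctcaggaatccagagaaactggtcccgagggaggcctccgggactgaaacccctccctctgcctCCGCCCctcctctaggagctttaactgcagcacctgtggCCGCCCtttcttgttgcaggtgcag

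Cldn2 stood apart from the other members in these letters. Its window was the only one of the 8 genes with a TATA box, which began at base 216 of the window, and the only one with TTTATG. A GC box was found in the windows of the 7 others and not in that of Cldn2. Of 32851 promoter windows of the same 300 base length, 13.6% held TATAAA, 11.9% held TTTATG and 35.7% held GGGCGG on either strand. The letters CTTTGAT of TCF/LEF factors, CAAAGTCCA of HNF4 factors and AGATAA of GATA factors were in none of the 8 genes' windows, against 3.73%, 0.475% and 11.2% of all windows. The GC content of the Cldn2 window, 51.3%, was next to the median over all windows of 52.7%, and the windows of the other genes had 52.0% to 68.0%.

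Filtering left 6963 cells of WT and 4941 of MG53-TG, whose totals were 108864593 and 91252276 UMIs, a UMI (unique molecular identifier) being 1 captured RNA molecule. Of these cells, 6119 and 4606 were epithelial by cluster, at medians of 15666 and 18654.5 UMIs. A cluster was called X-like from marker lists that held no member, which gave 8 epithelial types, and levels are UMIs of a gene per 1000000 UMIs of the same cells (CPM). Some named clusters had no marker of their own list among their top 10 genes but genes of another epithelial type, among them cluster 7 (641 cells) of the secretory progenitor-like cells, whose top genes held Mmp7 and Wnt3, known from Paneth cells, and cluster 14 (708 cells) of the early absorptive-like cells, with Fabp1, an enterocyte gene, and cluster 17 (152 cells) of the goblet-like cells, led by Slc5a12 and with Cyp3a11, which was also among the top 10 of an enterocyte-like cluster. Such 3′ counts are not scaled for gene length, so levels are compared between cell types and not between genes. The transgene check went with the labels, with 63 Trim72 UMIs (0.594 CPM) for WT epithelium and 4569 (50.8 CPM) for that of MG53-TG. Epcam stood at 567 and 600 CPM and Cdh1, which encodes E-cadherin, at 200 and 223 CPM in WT and MG53-TG epithelium, whereas the immune marker Ptprc had 6.27 and 12 CPM, mostly from tuft-like cells (213 and 260 CPM). The libraries shared 46 barcodes of at least 500 UMIs. The WT table came from another Cell Ranger version than the MG53-TG table and held all barcodes, so program, barcode filter and genotype cannot be told apart.

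Each gene had its own order of cell types, and this order was close to the same in both libraries. In 8 of 10 genes the highest of the 8 types was the same in WT and MG53-TG, the exceptions being Cldn23 and Tjp1. Spearman's rho between the libraries over the 8 types, given as a description of points that share library and depth, ranged from 0.857 for Cldn4 and Ocln to 1 for Cldn3. The fold between the highest and lowest type in WT was 102 for Cldn4, 23.8 for Cldn15 and 16.6 for Cldn2, against 5.53 to 11.2 for the other 7 genes. The low ends of these 3 claudins were near T cell-like levels. They were 0.869 against 2.48 CPM for Cldn4, 10.7 against 9.93 CPM for Cldn15 and 4.90 against 2.98 CPM for Cldn2. The other 7 genes were lowest in Paneth-like cells, and without that type their folds in WT were 1.87 to 8.32.

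**Figure D1:**
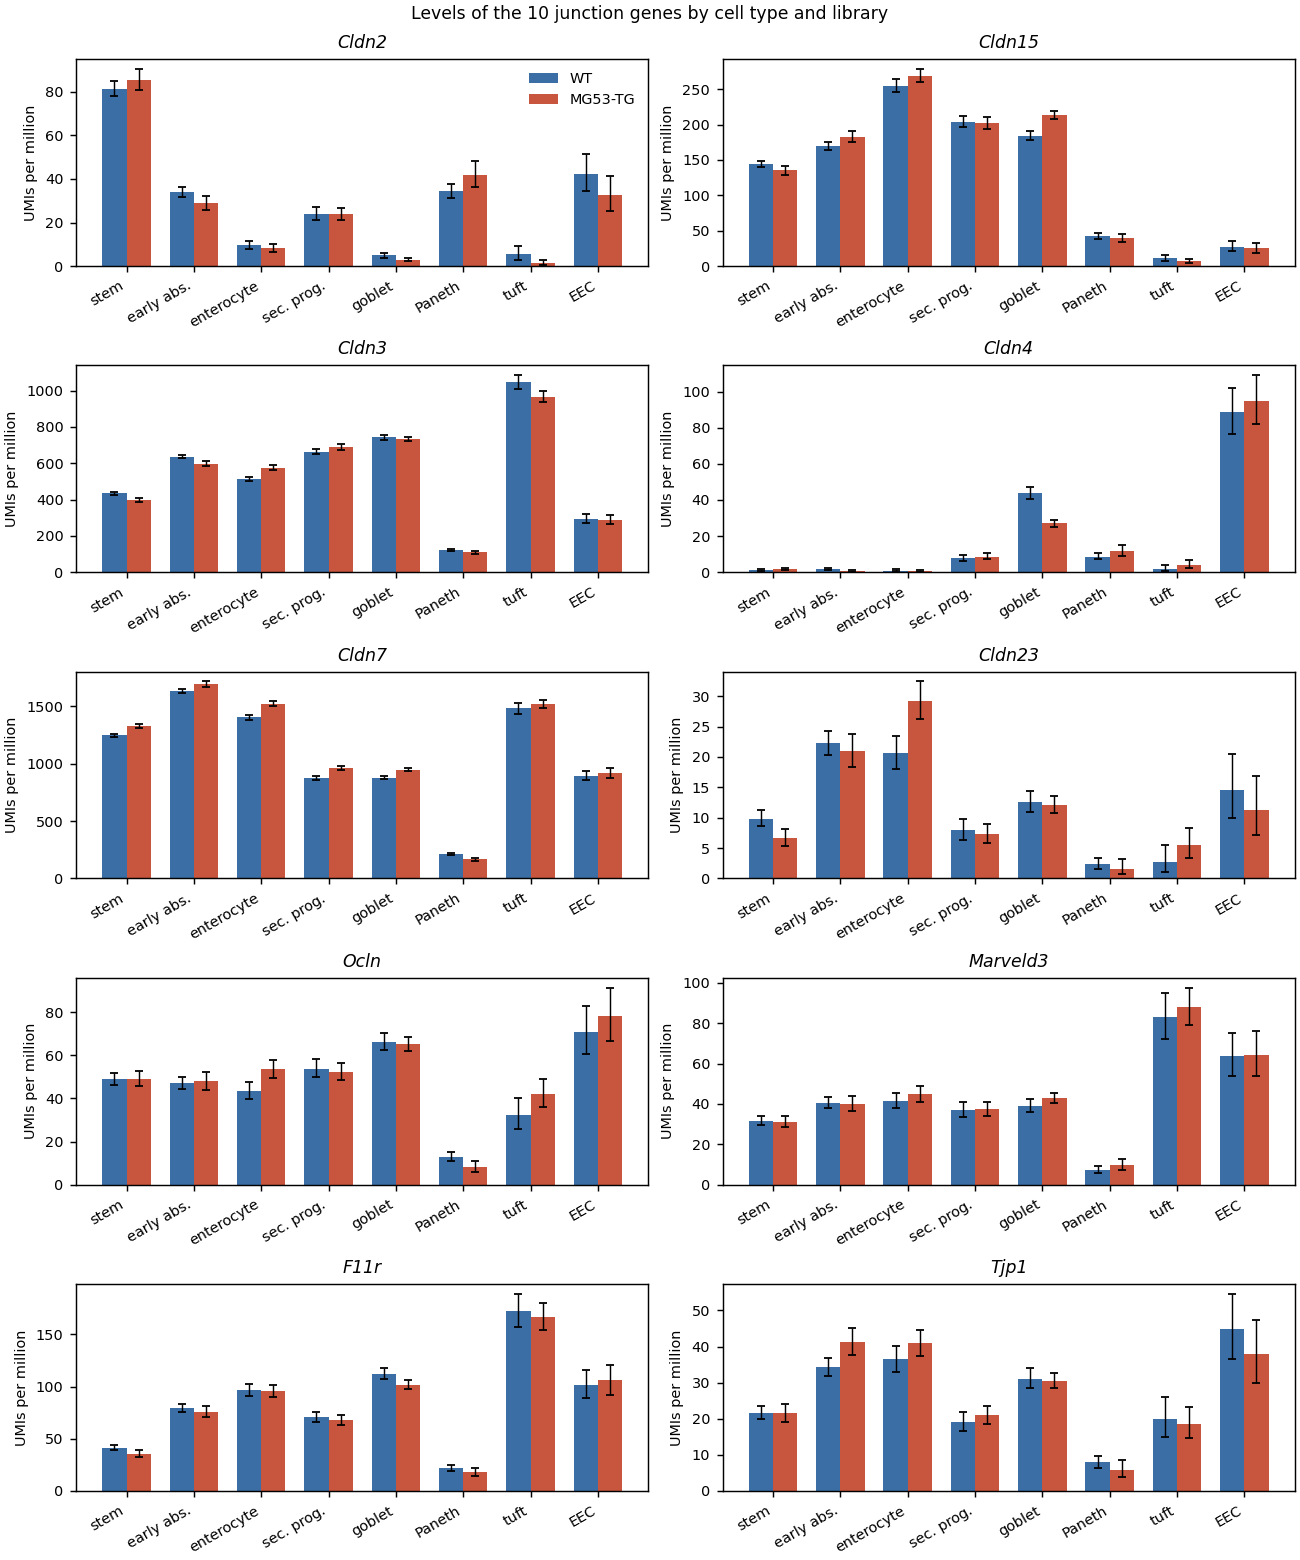
Levels of the 10 genes (panels, vertical axis in CPM) in the 8 named epithelial types (horizontal axis) for the WT and the MG53-TG library, with bars for 95% Poisson intervals that cover counting error only. The order of the types is nearly shared by the libraries, with Cldn2 highest in stem-like cells (81.5 and 85.7 CPM) and Cldn4 in enteroendocrine-like cells (88.6 and 94.8 CPM).

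Cldn2, the cation channel of crypts, was highest by CPM in stem-like cells. It stood there at 81.5 CPM in the WT library (1954 UMIs, interval 78.0 to 85.2) and 85.7 CPM in the MG53-TG library (1228 UMIs, interval 80.9 to 90.6). The next types in line were enteroendocrine-like cells with 42.3 and 32.6 CPM, Paneth-like cells with 34.4 and 41.9 CPM, and early absorptive-like cells with 34.0 and 28.7 CPM, whose intervals overlapped their neighbours in WT. Secretory progenitor-like cells followed with 24.1 and 23.7 CPM, most of it from cluster 7 (170 of 280 WT and 214 of 297 MG53-TG UMIs), and enterocyte-like cells with 9.73 and 8.14 CPM. Goblet-like cells, at 4.90 and 2.73 CPM, and tuft-like cells, at 5.36 and 1.24 CPM, were lowest and close to the T cell-like cells, which should lack the gene and had 2.98 and 1.04 CPM. Stem-like cells held 52.1% of the Cldn2 UMIs of WT epithelium and 52.7% of those of MG53-TG epithelium.

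Within stem-like cells, Cldn2 was higher in the cluster led by Olfm4 and replication genes (97.6 CPM over both libraries) than in the cluster led by mitosis genes (72.2 CPM). The early absorptive-like clusters had 45.1 CPM (led by Fabp6), 43.2 CPM (led by Rbp7) and 19 CPM (led by Cyp4a10), and the enterocyte-like clusters 13.2 CPM (led by Sult6b2 and Reg1) and 2.60 CPM (led by Leap2 and Apoa4). A UMI of Cldn2 was found in 71.4% of WT and 76.2% of MG53-TG stem-like cells, at median depths of 22018 and 27425 UMIs. After thinning every cell to the UMI minimum of the filter the shares were 12.5% and 13.5%, against 0.156% and 0.398% of T cell-like cells, whose unthinned shares were 0.933% and 0.398% at medians of 2854 and 3580 UMIs.

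Paneth-like cells, the antimicrobial cells of the crypt base, gave Cldn2 another rank when their secretory load was set aside. Their 50 most abundant genes took up 81.0% of UMIs in WT and 84.3% in MG53-TG, so that any other gene had a small share. Per 1000000 UMIs outside these 50 genes, Cldn2 was highest in Paneth-like cells, at 181 in WT (interval 164 to 199) and 267 in MG53-TG (interval 232 to 307), against 93.9 and 97.7 in stem-like cells. Check genes also stood high there on this scale. Cdh1 had 321 and 368, against 208 and 205 in stem-like cells, and Epcam 883 and 901, against 622 and 645. Cldn7 in contrast had rank 7 of the 8 types in both libraries. The part of the scale in the Cldn2 rank was not tested. Per cell, Paneth-like cells held 1.70 and 2.05 Cldn2 UMIs and stem-like cells 1.93 and 2.48. By CPM, 7 of the 10 genes were lowest in Paneth-like cells in both libraries, and on the scale outside the 50 genes no gene was lowest there in either. This scale was chosen after the data were seen.

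**Figure D2:**
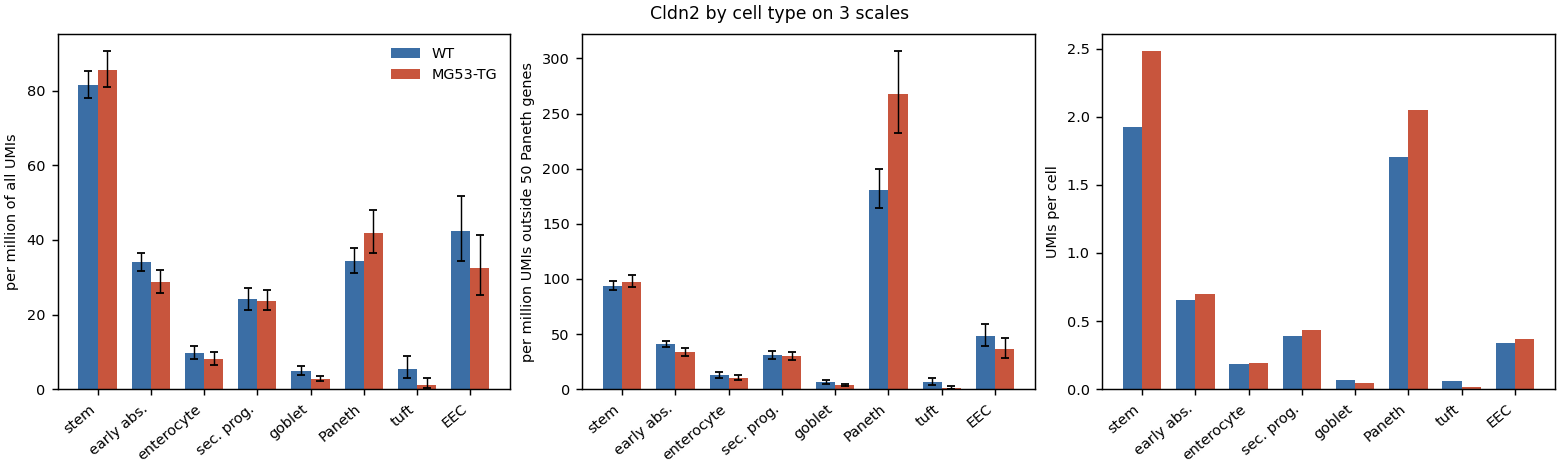
Cldn2 on 3 scales (CPM, per 1000000 UMIs outside the 50 most abundant Paneth-like genes, and UMIs per cell) in the named epithelial types of the WT and MG53-TG libraries, with 95% Poisson intervals on the first and second scale. Stem-like cells lead by CPM and per cell (1.93 and 2.48 UMIs), and Paneth-like cells lead on the middle scale (181 and 267).

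Cldn15, the other cation channel, had a different distribution. Enterocyte-like cells were highest, with 255 CPM in the WT library (2933 UMIs, interval 246 to 264) and 269 CPM in the MG53-TG library (3306 UMIs, interval 260 to 279). Goblet-like cells stood at 184 and 213 CPM, secretory progenitor-like cells at 204 and 202 CPM, early absorptive-like cells at 170 and 183 CPM and stem-like cells at 144 and 135 CPM. By CPM the other 3 types were lower. Paneth-like cells had 42.2 and 39.1 CPM, enteroendocrine-like cells 27.3 and 25.3 CPM and tuft-like cells 10.7 and 7.21 CPM, the last level being within the interval of T cell-like cells (9.93 and 10.4 CPM). Outside the 50 Paneth-like genes, however, Paneth-like cells had 222 and 249 per 1000000 UMIs, above stem-like cells (166 and 154) and early absorptive-like cells (204 and 213).

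Cldn4, a sealing claudin, was confined mostly to secretory cells among the named types. Enteroendocrine-like cells, which release hormones, were highest with 88.6 CPM in the WT library (201 UMIs, interval 76.8 to 102) and 94.8 CPM in the MG53-TG library (195 UMIs, interval 82.0 to 109). Goblet-like cells, which secrete mucus, followed with 43.7 CPM (696 UMIs) and 27.0 CPM (672 UMIs). The other named types lay by CPM at or below 11.7 in both libraries, with 0.869 and 0.651 CPM in enterocyte-like cells (10 and 8 UMIs) and 1.91 and 0.513 CPM in early absorptive-like cells (43 and 6 UMIs). T cell-like cells had 2.48 and 1.04 CPM, so that the levels of stem-like, tuft-like and absorptive cells were within or under the background of this assay in WT. Outside the 50 Paneth-like genes, Paneth-like cells had 45.7 and 74.3 per 1000000 UMIs of Cldn4, below goblet-like cells in WT (56.8) and above them in MG53-TG (34.3).

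Goblet-like cells were uneven in Cldn4. The goblet-like cluster led by Ido1, Frmd3 and Ptgdr, in which Cldn4 itself was among the leading genes although no junction gene entered the clustering, held 29.0% of WT and 21.3% of MG53-TG goblet-like cells but 73.3% and 68.2% of the goblet-like Cldn4 UMIs. Its level was 173 CPM among WT and 142 CPM among MG53-TG cells. The largest goblet-like cluster, led by Mptx1 and Clca1, had 13.5 and 8.48 CPM, the interferon-response cluster led by Ifi44 had 39.7 and 22.5 CPM, and the cluster led by Slc5a12 had 6.56 and 5.92 CPM. The Ido1 cluster was also the highest goblet-like cluster over both libraries for F11r (192 CPM), Ocln (79.7 CPM), Tjp1 (55.1 CPM), Marveld3 (55.4 CPM) and Cldn23 (21.1 CPM), and it was shallower, with a median of 7635 UMIs against 17510 in the Mptx1 cluster. The part of depth in this was not tested. Among enteroendocrine-like cells, the cluster led by Tph1 and Chga, genes of serotonin-producing cells, had 148 CPM of Cldn4 and the cluster led by Gip, Cck and Gcg, genes of peptide hormones, had 65.6 CPM.

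**Figure D3:**
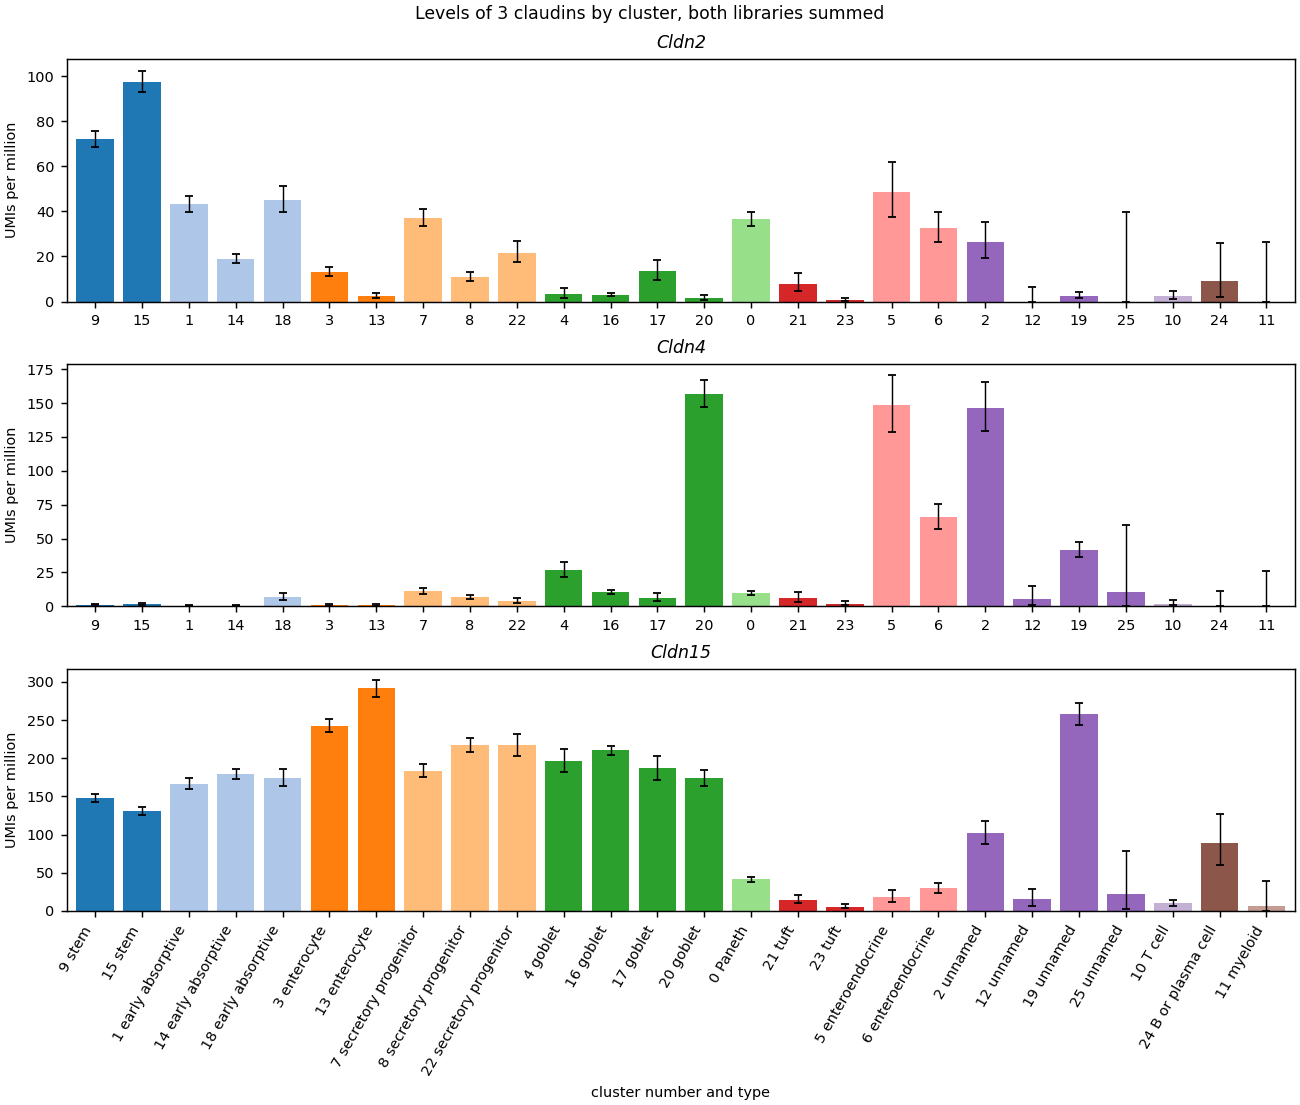
Levels of Cldn2, Cldn4 and Cldn15 (panels, vertical axis in CPM over both libraries together, with 95% Poisson intervals) by cluster (horizontal axis), the clusters being grouped and coloured by cell type. Cldn4 is concentrated in the Ido1-led goblet-like cluster (157 CPM), the Tph1-led enteroendocrine-like cluster (148 CPM) and the unnamed shallow cluster 2 (147 CPM).

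Cldn3 and Cldn7, the remaining classical sealing claudins, were found in every epithelial type. Cldn3 was highest in tuft-like cells, the chemosensory cells of the lining, at 1045 CPM in the WT library (interval 1006 to 1085) and 966 CPM in the MG53-TG library (interval 936 to 997), and next in goblet-like cells at 743 and 734 CPM. Stem-like cells had 434 and 398 CPM and enteroendocrine-like cells 296 and 290 CPM. Cldn7 was highest in early absorptive-like cells, at 1633 CPM in the WT library (interval 1616 to 1650) and 1691 CPM in the MG53-TG library (interval 1668 to 1715), and tuft-like, enterocyte-like and stem-like cells had 1245 to 1519 CPM. Leaving out Paneth-like cells, where Cldn3 had 121 and 110 CPM and Cldn7 213 and 167 CPM, the fold between the highest and lowest type was 3.53 and 3.33 for Cldn3 and 1.87 and 1.84 for Cldn7. On that count Cldn7 was the most even of the 10 genes in both libraries. A UMI of Cldn7 was found in 98.5% of WT and 98.9% of MG53-TG epithelial cells (76.0% and 76.8% after thinning), against 13.7% and 12.7% of T cell-like cells (6.22% and 5.98% after thinning).

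Cldn23, a less studied claudin, was highest by CPM in the 2 absorptive types. Early absorptive-like cells had 22.3 CPM in the WT library (502 UMIs, interval 20.4 to 24.3) and 21.0 CPM in the MG53-TG library (245 UMIs, interval 18.4 to 23.8), and enterocyte-like cells had 20.6 CPM (interval 18.1 to 23.4) and 29.2 CPM (interval 26.3 to 32.4). The 2 absorptive types overlapped in WT and did not in MG53-TG, where enterocyte-like cells were higher. All other types were below 15 CPM in both libraries, though in WT the enteroendocrine-like interval (10.0 to 20.4) overlapped that of enterocyte-like cells. By cluster, over both libraries, the Ido1-led goblet-like cluster had 21.1 CPM. This was above the Rbp7 (17.4), Cyp4a10 (19.5) and Leap2 (14.0) clusters and below the Fabp6 (39.1) and Sult6b2 (32.6) clusters of the absorptive types.

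Ocln, Marveld3, F11r and Tjp1 were found in all types, each with enteroendocrine-like or tuft-like cells at or near the top. Ocln stood at 71.0 and 78.3 CPM in enteroendocrine-like and 66.3 and 65.0 CPM in goblet-like cells, whose intervals overlapped in both libraries, and at 32.5 to 53.8 CPM in the 5 other types besides Paneth-like cells. Marveld3 was highest in tuft-like cells, at 83.0 and 88.0 CPM, followed by enteroendocrine-like cells at 63.9 and 64.2 CPM. F11r was also highest in tuft-like cells, at 172 CPM (interval 157 to 189) and 167 CPM (interval 154 to 180), and lowest outside Paneth-like cells in stem-like cells, at 41.4 and 35.8 CPM. Tjp1 had its 3 highest types within overlapping intervals, with 45.0 and 37.9 CPM in enteroendocrine-like, 36.4 and 41.0 CPM in enterocyte-like and 34.3 and 41.2 CPM in early absorptive-like cells. Paneth-like cells had 5.93 to 21.8 CPM of these 4 genes.

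A score for villus position was made from 7 genes of the villus base and 9 of its tip, none of them a member. Early absorptive-like and enterocyte-like cells were divided by this score into 5 steps, with equal numbers of cells over both libraries. The labels do not give the gut segment, and crypts were the starting material. How far the score follows segment or cell type rather than position was not tested. Cldn15 was higher at each next step, going from 164 to 188, 205, 210 and 232 CPM in WT and from 189 to 200, 221, 248 and 266 CPM in the MG53-TG library (log2 of highest over lowest 0.50, interval 0.38 to 0.62, and 0.49, interval 0.35 to 0.63). Cldn2 had 36.3, 25.2, 21.3, 24.3 and 21.2 CPM from the lowest to the highest step in WT (-0.77, interval -1.11 to -0.45) and 27.2, 24.6, 18.1, 13.4 and 10.5 CPM in the MG53-TG library (-1.38, interval -1.93 to -0.86), lower at each next step only in the latter. Cldn2 was the only member whose change passed 1.5-fold in both libraries. The direction of Cldn15 turned at a mitochondrial limit of 50%, to -0.36 in WT and -0.45 in MG53-TG, while Cldn2 was lower at the highest step under each of the 10 alternatives.

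Of the other members, F11r and Marveld3 were higher in the highest step in both libraries, by a log2 ratio of 0.26 and 0.25 for F11r and 0.19 and 0.50 for Marveld3, the WT interval of Marveld3 including 0. After thinning, F11r turned to -0.54 in MG53-TG and Marveld3 to -0.07 in WT. Cldn3 was lower there, going from 648 to 460 CPM in the WT library (-0.49) and from 610 to 487 CPM in the MG53-TG library (-0.33), a size that moved with the settings, from -0.39 to -2.06 in WT and from -0.31 to -1.98 in MG53-TG. Cldn7, Cldn23 and Tjp1 were lower by less, with ratios of -0.29 to -0.03, and of these only the intervals of Cldn7 lay below 0, although under 6 of 10 alternatives it was higher in each library. Cldn23 kept its sign under 9 of 10 in WT and 6 of 10 in MG53-TG. Ocln went in opposite directions (-0.21 and 0.23, both intervals including 0), and Cldn4 had at most 24 UMIs in any step.

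The upper end of this score looked different once shallow cells were let in. Clusters 2 and 19 (386 and 720 cells) had the enterocyte list as their leading marker list and were led by Saa1 and Slc10a2 and by Plb1 and Enpp7, but their median depths of 3752 and 4697.5 UMIs, against 21570 and 18916 in the enterocyte-like clusters, left them unnamed. Cldn4 stood in cluster 2 at 91.1 CPM for WT and 263 CPM for MG53-TG (110 and 151 UMIs), and at 34.9 and 47.4 CPM in cluster 19 (85 and 128 UMIs), against at most 0.901 CPM in the enterocyte-like clusters of either library. Over both libraries in clusters 2 and 19, Cldn7 had 2861 and 2271 CPM, F11r 236 and 156 CPM, Marveld3 121 and 61.9 CPM, Tjp1 95.4 and 59.2 CPM and Ocln 91.0 and 59.6 CPM. Each of these levels was above those of both enterocyte-like clusters, where Cldn7 had 1429 and 1513 CPM, F11r 99.3 and 91.2 CPM, Marveld3 42.5 and 44.3 CPM, Tjp1 44.4 and 30.5 CPM and Ocln 53.9 and 41.0 CPM. Cldn3 had 385 and 337 CPM there, against 640 and 405 CPM in the enterocyte-like clusters, but in the MG53-TG library cluster 2 (497 CPM) stood above the lower of these (438 CPM). Cldn2 differed between them, with 26.4 CPM (28 WT and 19 MG53-TG UMIs) in cluster 2, above both enterocyte-like clusters (13.2 and 2.60 CPM), and 2.53 CPM (8 and 5 UMIs) in cluster 19.

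With clusters 2 and 19 included, an alternative added after the data were seen, Cldn4 appeared at the last step of the villus score. It had 2.39, 1.66, 0.115, 2.69 and 80.7 CPM from the lowest to the highest step in WT (25, 17, 1, 16 and 189 UMIs) and 0, 0.530, 0.623, 1.89 and 149 CPM in the MG53-TG library (0, 4, 5, 10 and 274 UMIs). Cldn2 was lower at each next step, going from 36.5 to 12.8 CPM at the step before the last and 5.12 CPM at the last in WT, and from 27.9 to 7.18 and 0.545 CPM in the MG53-TG library. F11r went from 74.8 to 198 CPM and from 79.2 to 230 CPM, Tjp1 from 34.9 to 76.8 CPM and from 40.9 to 83.4 CPM, and Cldn7 from 1721 to 2654 CPM and from 1762 to 2710 CPM. Cldn15 was highest at the step before the last, going from 163 CPM in the lowest step to 226 and then 186 CPM in WT (log2 of highest over lowest step 0.19, interval 0.03 to 0.34) and from 187 to 289 and then 210 CPM in the MG53-TG library (0.16, interval -0.01 to 0.34).

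Depth and other epithelial genes moved with this last step. The median depth of the highest step was 3550 UMIs in WT and 4719.5 UMIs in MG53-TG, against 17789 and 21857.5 UMIs in the lowest, and Epcam went from 583 to 2293 CPM and from 620 to 2431 CPM, more than F11r or Tjp1. Free RNA, read from WT droplets of 10 to 100 UMIs, had 23.2 CPM of Cldn4, 111 CPM of F11r, 30.1 CPM of Tjp1, 27.6 CPM of Marveld3 and 740 CPM of Cldn7, each below its level in clusters 2 and 19 of WT. Cldn2 stood there at 19.2 CPM (interval 15.1 to 24.0), against 23.2 CPM in cluster 2 and 3.29 CPM in cluster 19 of WT, and Cldn15 at 126 CPM, against 97.7 and 213 CPM. Mitochondrial UMIs made up 7.56% and 13.1% in clusters 2 and 19, against 8.66% and 11.7% in the enterocyte-like clusters. The MG53-TG table held no barcode under 500 UMIs, so its free RNA was not analysed here. The part of depth in the last step was not tested.

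**Figure D4:**
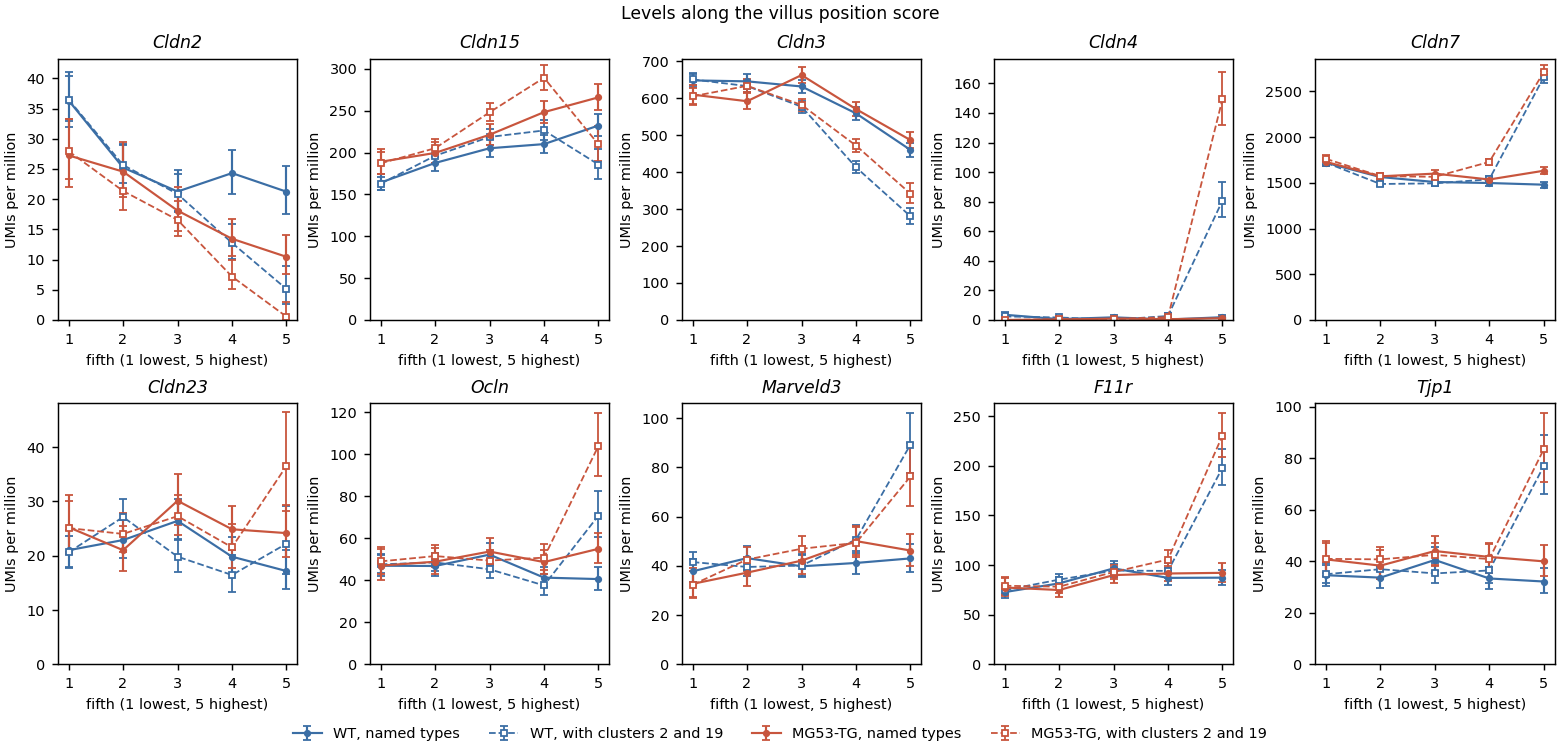
Levels (CPM, vertical axes from 0) by step of the villus position score (horizontal axis, 1 the lowest and 5 the highest) in the WT and MG53-TG libraries, for the named absorptive types alone (solid lines) and with the shallow clusters 2 and 19 (dashed lines), bars being 95% Poisson intervals. Cldn2 is lower at the highest than at the lowest step in both versions and Cldn4 is near 0 until the last step of the dashed lines, where it reaches 80.7 CPM (WT) and 149 CPM (MG53-TG).

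Between the genotypes, none of the 10 genes was past 1.5-fold in either direction over all epithelial cells. Of the 14656 genes with at least 30 UMIs, 9.8% were. For 10 genes, none is near that share. The members also had many more UMIs than that minimum, at the least 1411 and 1234 for Cldn23. In 9 genes there was a ratio of MG53-TG over WT above 0 on the log2 scale, from 0.04 for Cldn23 (13.3 and 13.7 CPM) to 0.23 for Cldn4 (12.9 and 15.2 CPM), and the median of the 10 was 0.15 beside 0.09 over the 14656 genes. As means of the log2 ratios of the 8 types, each with equal weight, the median of the 10 was -0.033. Sums over all cells of a library cannot tell fewer cells of a type from less RNA per cell.

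Cldn2 was the exception, with 35.3 CPM in the WT library (3747 UMIs, interval 34.2 to 36.5) and 25.9 CPM in the MG53-TG library (2330 UMIs, interval 24.9 to 27.0). Its ratio was -0.45 on the log2 scale (-0.52 to -0.37). In stem-like cells, its main source, the ratio was 0.07 (interval -0.03 to 0.17). Stem-like cells gave 22.6% of WT and 15.9% of MG53-TG epithelial UMIs, and goblet-like cells, where Cldn2 was low, 15% and 27.7%. In early absorptive-like cells, the next largest source, Cldn2 was lower in MG53-TG (34.0 and 28.7 CPM, ratio -0.24, interval -0.43 to -0.05), with ratios by cluster of -0.06, -0.01 and -0.47 in the Rbp7, Cyp4a10 and Fabp6 clusters. The mean of the log2 ratios of the 8 types, each with equal weight, was -0.44, to which tuft-like cells gave -2.11 from 14 and 5 UMIs. When the MG53-TG clusters were weighted as in WT, a setting added after the data were seen, the ratio was 0.02.

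**Figure D5:**
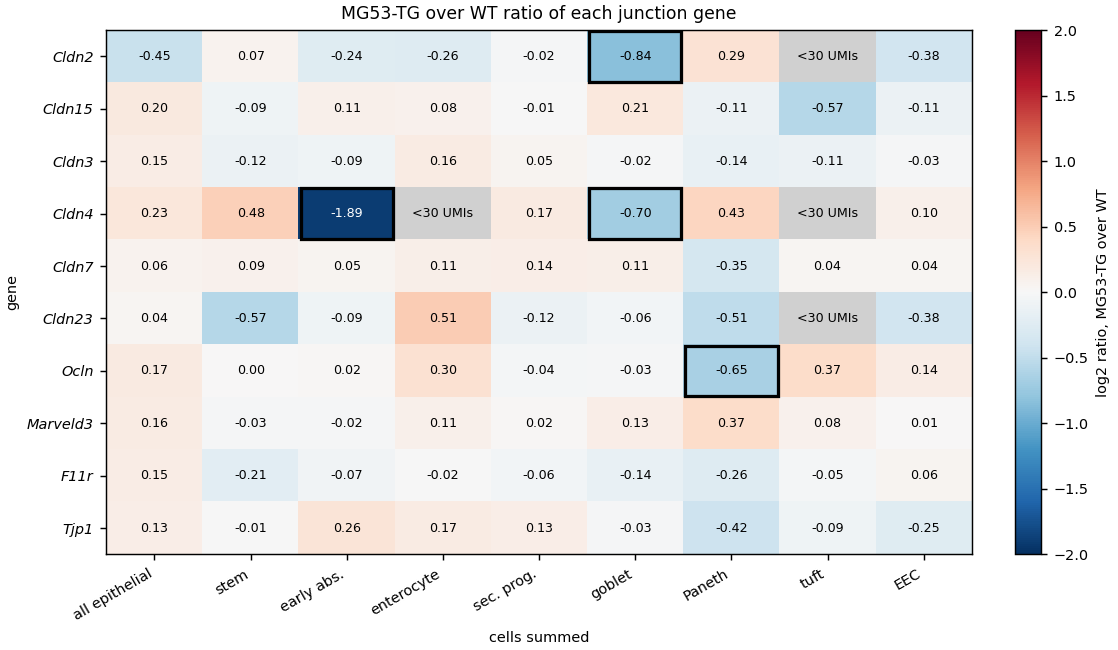
Heat map of log2 ratios of MG53-TG over WT for the 10 genes (rows) in the epithelial sum and in each named type (columns; EEC, enteroendocrine-like), the value being printed in each field and coloured red where higher and blue where lower in MG53-TG. Grey fields had fewer than 30 UMIs and black frames mark the 4 pairs of gene and type past 1.5-fold, all of them lower in MG53-TG.

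Within types, 4 of the 76 pairs of gene and type with at least 30 UMIs passed 1.5-fold, and all 4 were lower in MG53-TG. The share of all genes past that fold was 5.68% for stem-like, 7.31% for early absorptive-like, 7.4% for enterocyte-like, 7.61% for secretory progenitor-like, 5.71% for goblet-like, 24.1% for Paneth-like, 9.6% for tuft-like and 10.6% for enteroendocrine-like cells. Of the 10 genes this left 1 past the fold among early absorptive-like cells, 2 among goblet-like cells and 1 among Paneth-like cells, with none in the other 5 types. Genes with a ratio above 0 numbered 4 of 10 in stem-like, 4 of 10 in early absorptive-like, 7 of 9 in enterocyte-like, 5 of 10 in secretory progenitor-like, 3 of 10 in goblet-like, 3 of 10 in Paneth-like, 3 of 7 in tuft-like and 5 of 10 in enteroendocrine-like cells. The median ratio over all genes was -0.19 in Paneth-like cells, -0.002 in enteroendocrine-like cells and 0.03 to 0.07 in the other types.

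The pair with the most UMIs was Cldn4 in goblet-like cells, at 43.7 CPM in the WT library (696 UMIs, interval 40.6 to 47.1) and 27.0 CPM in the MG53-TG library (672 UMIs, interval 25 to 29.1). Its ratio was -0.70 on the log2 scale (-0.85 to -0.54). Under the 12 alternatives it ranged from -0.76 to -0.41 and was past the fold in 8. The direction held in each of the 4 goblet-like clusters, with ratios of -0.28 (interval -0.47 to -0.10) in the Ido1 cluster, -0.67 (interval -1.01 to -0.33) in the Mptx1 cluster, -0.82 (interval -1.48 to -0.13) in the Ifi44 cluster and -0.15 (interval -1.65 to 1.36) in the Slc5a12 cluster. The Ido1 cluster, where most of the Cldn4 lay, was a smaller part of the goblet-like cells in MG53-TG, as given above. No single cell decided the value, since the 5 highest cells held 13.2% of the UMIs in WT and 9.52% in MG53-TG. A UMI was found in 25.1% and 21.8% of goblet-like cells at median depths of 14085 and 17986 UMIs, and in 6.89% and 5.20% after thinning, against 0.778% and 0.398% of T cell-like cells (0.311% and 0.398% after thinning).

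The other 3 pairs rested on few counts or few cells. Cldn4 in early absorptive-like cells counted 43 WT and 6 MG53-TG UMIs (log2 ratio -1.89, interval -3.42 to -0.66), and 38 of the 43 WT UMIs lay in 5 cells, 22 of them in 1 cell. The Fabp6 cluster held 37 of the 43. Under the 12 alternatives the ratio of this pair ranged from -2.53 to -0.30, and it passed the fold in 11. Cldn2 in goblet-like cells had 78 and 68 UMIs (-0.84, interval -1.33 to -0.35), of which 34 in MG53-TG lay in 5 cells, and the ratio was 0.12 after thinning. Ocln in Paneth-like cells had 154 and 40 UMIs (-0.65, interval -1.19 to -0.14), in the type where 24.1% of all genes passed the fold and the median over all genes was -0.19, and it passed the fold under 3 of 12 alternatives.

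In the shallow enterocyte-led clusters the ratios pointed the other way. In cluster 2 (278 WT and 108 MG53-TG cells), where 22.7% of all genes with at least 30 UMIs passed 1.5-fold, Cldn4 had a ratio of 1.53 (interval 1.17 to 1.90), Cldn23 of 0.89 (interval 0.12 to 1.65) and Ocln of 0.64 (interval 0.17 to 1.11), and 9 of the 10 genes were above 0 with a median of 0.51 beside -0.06 over all genes. In cluster 19 (409 and 311 cells), where 12.1% of genes passed, none of the 9 tested members did, and 8 were above 0 with a median of 0.26 beside 0.03. The ratio of Cldn4 there was 0.44 (interval 0.03 to 0.85). Cldn4 was thus lower in goblet-like cells and higher in these clusters of the MG53-TG library, and the difference between the 2 ratios has no test with 1 library a group.

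Smaller differences within types had intervals beyond 0 without reaching the fold, 14 of 76 pairs being higher and 10 lower in MG53-TG. Over all genes and the same types, 12.3% of pairs were higher and 5.34% lower by this measure, at a median of 309 UMIs a pair against 1139.5 for the members, and deeper counts give narrower intervals. The lower ones included Cldn7 in Paneth-like cells (213 and 167 CPM, ratio -0.35, interval -0.46 to -0.23), F11r in stem-like cells (-0.21, interval -0.37 to -0.05) and goblet-like cells (-0.14, interval -0.23 to -0.05; -0.22 in the Mptx1 and 0.21 in the Ido1 cluster) and Cldn3 in stem-like cells (-0.12, interval -0.17 to -0.08). Cldn7 was higher by this measure in stem-like (0.09), early absorptive-like (0.05), enterocyte-like (0.11), secretory progenitor-like (0.14) and goblet-like cells (0.11). Cldn23 was higher in enterocyte-like cells (20.6 and 29.2 CPM, ratio 0.51, interval 0.26 to 0.75) and lower in stem-like cells (9.85 and 6.63 CPM, ratio -0.57, interval -0.93 to -0.22). In stem-like cells its ratio was -0.91 in the cluster led by mitosis genes (170 and 54 UMIs, interval -1.38 to -0.46). The Olfm4 cluster had 0.05 (66 and 41 UMIs, interval -0.55 to 0.63). These 2 intervals overlapped, and the difference was not tested. Ocln was higher in enterocyte-like cells (43.5 and 53.5 CPM, ratio 0.30, interval 0.13 to 0.47), and Tjp1 in early absorptive-like cells (34.3 and 41.2 CPM, ratio 0.26, interval 0.10 to 0.43; 0.19 to 0.36 over the 3 clusters). Cldn15 was higher in goblet-like cells (184 and 213 CPM, ratio 0.21, interval 0.14 to 0.27). Single clusters could pass the fold where their type did not. Within secretory progenitor-like cells, where the ratio of Cldn2 was -0.02, the cluster led by Agr2 and Dll1 had 15.4 and 6.22 CPM (-1.31, interval -1.97 to -0.68) and the cluster led by Rnase1 and Retnlb had 32.3 and 41.9 CPM (0.38, interval 0.08 to 0.68). The latter is cluster 7, with the Paneth genes named above. None of these can be set against a spread between animals.

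Of 69 further listed junction genes, 54 had at least 30 UMIs in epithelium, 44 of them above 0 and 10 below, with a median log2 ratio of 0.15. Past 1.5-fold were 5 of these 54, against none of the 10 members and 9.8% of all genes. The 5 had higher values in MG53-TG and were all rare, with intervals that included 0 for Jam3 (-0.07 to 2.03) and Cldn6 (-0.10 to 1.63). They were Amotl1, which encodes angiomotin-like 1, with 66 and 116 UMIs (1.05), Jam3 with 14 and 23 (0.95), Cldn6 with 21 and 30 (0.75), Esam with 110 and 145 (0.64) and Cgnl1, paracingulin, with 61 and 79 (0.61). The lowest ratios were those of Cldn9 (-0.45), the desmosome gene Pkp3 (-0.14), the myosin light chain gene Myl12b (-0.11), Tjap1 (-0.08) and Nectin3 (-0.05). Intervals included 0 for Cldn9 (-1.22 to 0.29, from 42 and 26 UMIs), Tjap1 (-0.21 to 0.06) and Nectin3 (-0.12 to 0.02). No gene of the adherens junction (9 tested), the desmosome (6 tested) or the list of junction regulators (10 tested) passed the fold in the epithelial sum. By type, 17 of 366 pairs of further junction gene and type passed it, against 9.34% of the 83696 pairs of all genes, among them 2 of the adherens junction (Nectin3 and Vcl), 1 of the desmosome (Dsc2) and 3 of the regulators (Mylk in 2 types and Prss8).

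Of 17 further claudins listed, 5 had at least 30 UMIs, and only Cldn12 and Cldn14 reached 20 CPM in a named type. Cldn12 had 12.5 and 13.1 CPM over all epithelial cells and was highest in enteroendocrine-like cells (22.5 and 21.9 CPM), and Cldn14 in tuft-like cells (33.3 and 19.1 CPM).

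The genes whose levels ran most like those of a member were found among 8513 genes over 16 sums, the 8 types in each library, by Pearson's r of log2(CPM + 1), which is a description of points that share libraries and depth. The nearest genes of Cldn2 had the lowest r of any member's, with Cdo1 (0.88), Creg1 (0.84) and Hook1 (0.79). Cldn4 was nearest to Ptprn2 and Ffar2 (both 0.94) and 2510009E07Rik (0.94), Cldn15 to Tacc2 (0.95), Duox2 (0.95) and Chpt1 (0.94), and Cldn23 to Il17rc, Zzef1 and Itga3 (all 0.95). Among the members lowest in Paneth-like cells besides Cldn23, the nearest genes were Sft2d1 for Cldn3 (0.98), Higd2a for Cldn7 (0.99), Keap1 for Ocln (0.98), Cdh17 for Tjp1 (0.98), Sema4a for F11r (0.99) and Hexim1 for Marveld3 (0.99). Without the Paneth-like sums these r were 0.95 for Cldn3 and Cldn7, 0.88 for Ocln, 0.94 for Tjp1 and 0.98 for F11r and Marveld3. Among pairs of members, r went without those sums from 0.84 to 0.29 for Cldn3 with Cldn7 and from 0.77 to -0.75 for Cldn7 with Ocln, but only from 0.93 to 0.85 for F11r with Marveld3 and from 0.90 to 0.83 for Cldn23 with Tjp1.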

How the data were processed

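The authors deposited raw UMI counts per gene and barcode, which were not scaled. Per the file headers, the WT table was made with Cell Ranger 4 and that of MG53-TG with 6.0.1, and the submitters' processing notes name mm10 and Seurat. The WT table held 2005718 barcodes (158455748 UMIs) and that of MG53-TG 12361 (128227881 UMIs, none under 500 per barcode). Strand use and multi-mapping are not given in the sources used here.

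Barcodes with at least 1354 UMIs, 200 genes and at most 25% mitochondrial UMIs were kept, and 3755 of 11156 WT and 4402 of 9555 MG53-TG barcodes exceeded that last limit. Scrublet's own threshold marked 0.0135% and 0.0388% of cells, under 0.5%, so the highest-scoring 438 (5.92%) and 212 (4.11%) were removed, at 0.8% per 1000 cells. Cells were clustered together with scanpy 1.11.5 (Python 3.11.15, leidenalg 0.10.2) on 1998 variable genes without junction genes, 30 components, 15 neighbours and resolution 1, giving 26 clusters. A name needed 3 markers, each in at least 10% of cells and 1.5-fold above the other cells. Shallow clusters with no own marker among their top 10 genes stayed unnamed. Rebuilt names may differ from those of the study.

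Levels were summed UMIs. Intervals were exact Poisson (CPM), Clopper-Pearson (shares) and conditional binomial (ratios, scipy 1.17.1), at 95%. Cells were thinned to 1354 UMIs for shares, and none was shallower. Computations were tested on simulated data. Members and lists were chosen with earlier results of these data known. Named were all 10 members, the 5 junction genes with the largest ratio each way, claudins with 20 CPM in a type, and the 3 genes nearest each member, of which some are given. Pairs of genes and types under 30 UMIs (4 of 80) were left without a call.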

Additional observations from a re-analysis of the deposited data

Results flagged for a closer look

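Cldn4 differed in direction between parts of the epithelium, being higher in MG53-TG in the shallow enterocyte-led cluster 2 (log2 ratio 1.53) and lower in early absorptive-like cells (-1.89) and goblet-like cells (-0.70). Ocln was likewise higher in cluster 2 (0.64) and lower in Paneth-like cells (-0.65). With 1 library per genotype these differences were not tested.

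A signal of the members appeared in barcodes left out for their mitochondrial share. Per 1000000 UMIs from genes other than mitochondrial ones, the 10 genes together had 2031 in the 3755 WT barcodes and 2086 in the 4402 MG53-TG barcodes over the limit, against 2235 and 2387 in kept epithelial cells. The make-up differed. Tjp1 stood at 58.7 and 57.8 against 29.3 and 31.9, F11r at 135 and 148 against 80.4 and 88.8, Marveld3 at 66.5 and 83.2 against 39.7 and 44.3 and Cldn15 at 241 and 284 against 168 and 192, whereas Cldn2 stood at 9.22 and 5.58 against 37.5 and 27.4 and Cldn3 at 187 and 175 against 562 and 623.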

How the results depend on the processing

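No paired analysis was possible because each genotype had 1 library, and no test was made. The number of members with the same highest type in both libraries was 8 or 9 under all 10 alternatives run for it, and 6 to 9 members had the same direction along the villus score in both libraries. That direction was not always the one reported, since Cldn15 turned to -0.36 (WT) and -0.45 (MG53-TG) at a mitochondrial limit of 50%, and the reported sign held for Cldn7 in 4 of 10 alternatives in each library and for Tjp1 in 3 (WT) and 1 (MG53-TG). After thinning, F11r turned to -0.54 in MG53-TG and Marveld3 to -0.07 in WT. The 4 pairs past the fold became 7 with doublets kept, with a UMI minimum of 500 and outside the 50 Paneth-like genes, and 1 at a fold of 2. Cldn4 in goblet-like cells was lower under all 12 alternatives (-0.76 to -0.41) and past the fold in 8, and Ocln in Paneth-like cells (-1.32 to -0.01) in 3. Cldn2 in goblet-like cells turned to 0.12 when cells were thinned to the UMI minimum. The median log2 ratio of the 10 genes, 0.15, was 0.060 under a median of ratios, 0.096 as a mean of single-cell CPM, -0.033 as means of the log2 ratios of types at equal weight, 0.046 after thinning and 0.048 at the WT make-up. The 5 further junction genes past the fold became 3 under a median of ratios or with at least 100 UMIs, 2 by single-cell CPM, 0 after thinning and 1 at a fold of 2. Cldn4 along the villus score in WT turned from -0.92 to 3.66 with doublets kept, 5.48 at a mitochondrial limit of 50%, 1.54 at a UMI minimum of 500, 1.15 at Leiden resolution 2, 0.87 with libraries clustered separately, 3.69 with junction genes kept in the clustering and 5.08 with the shallow clusters included. Each of these settings changed which cells counted as absorptive. Other causes were not tested. The scales outside Paneth-like genes and at the WT make-up and the shallow clusters were chosen after seeing the data.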
